A study of Sus scrofa with 8 samples.

Results

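Cortisol acts in fat through a short chain of proteins, and 7 of their genes were followed here in pig backfat. They were the glucocorticoid receptor NR3C1, the cortisol-activating enzyme HSD11B1, the glucocorticoid-induced genes FKBP5, TSC22D3, SGK1 and DUSP1, and KLF9, a Kruppel-like transcription factor that is itself induced by glucocorticoids. The members were all probe sets whose platform annotation held exactly 1 of these 7 symbols. There were 13 such probe sets among the 24123 on the array, 4 genes had more than 1, and 12 passed the filter on dim values described below. The genes were chosen by their part in glucocorticoid action and by the KNP and YS signals themselves, with the comparison of the breeds already known, so the breed differences of its members are given as a description, with no test.

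The samples were backfat, the subcutaneous fat of the back, from 2 breeds of pig that the labels call KNP and YS, reared alike. YS stands for Yorkshire in one label, while the name KNP is left unexplained. The 2 groups were 4 KNP samples from pigs of 7 months and 4 YS samples from pigs of 6 months, each hybridised to 1 GeneChip Porcine Genome Array from Affymetrix, so breed and age cannot be told apart. No treatment, transgene or sex is given, and whether each sample was a different animal is not stated, so the SDs and SEs measure the spread between these samples.

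Cortisol, the main glucocorticoid of the pig, circulates beside its inactive form cortisone. HSD11B1, an enzyme of the endoplasmic reticulum that is abundant in fat and liver, turns cortisone back into cortisol inside the cell. Cortisol then binds the receptor NR3C1, which waits in the cytosol in a complex with heat shock proteins, enters the nucleus and switches on genes such as those followed here. In fat, glucocorticoids are known to promote the maturation of fat cells and to change the balance between storage and release of lipid. The roles given below are known mostly from human and mouse cells.

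The signal is a linear brightness that the authors had scaled to a trimmed mean of 500 on each array. Log2 values are log2(signal + 16). Background was gauged on each array by 23 control probe sets that match no pig transcript; their 95th percentile ranged from 40.6 to 161 in signal over the 8 arrays, and a probe set is called above the no-target level on an array where its signal exceeded that array's own value. The array medians ranged from 158.2 to 263. Adipocyte markers were bright, with 8 of 9 genes above the no-target level on all 8 arrays and a summed signal of 91628 to 119607 in KNP and 80842 to 108127 in YS. FABP4 alone gave 35557 to 56120 of the KNP sum. Some single markers varied more, as ADIPOQ did from 156 on KNP replicate 1 to 5458 on KNP replicate 3. Of the 9 genes 5 had the higher and 4 the lower mean in KNP, with a median log2 difference of 0.05. Skeletal muscle markers had a summed signal of 82632 on KNP replicate 2 and of 401 to 1298 on the other KNP arrays and 625 to 1232 on the YS arrays. The 3'/5' difference, the mean log2 excess of the 3' over the 5' probe sets of the actin, GAPDH and elongation factor controls, was 8.54 on KNP replicate 1, 5.88 on KNP replicate 2 and 4.40 on YS replicate 4, and 2.12 to 3.17 on the other arrays. A larger value means that less of the 5' end of these transcripts was copied or present.

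KLF9 was lower in KNP on every array. KLF9 binds GC-rich promoter elements, usually as a repressor, and its gene is one of those switched on early by the activated glucocorticoid receptor and also by thyroid hormone. Its bright probe set had signals of 3548, 4109.8, 2722 and 4779 on KNP replicates 1 to 4 and of 6545, 6266, 6084 and 5721 on YS replicates 1 to 4. The brightest KNP array thus stayed below the dimmest YS array, and KNP arrays were more spread out than YS arrays. The mean was 11.86 ± 0.34 for KNP against 12.59 ± 0.08 for YS (SD, n = 4), a log2 difference of -0.73 ± 0.18 (SE), which makes the YS mean 1.65-fold the KNP mean. Of the 17999 probe sets tested, 0.856% lay wholly below YS in KNP and 1.1% wholly above it, and KLF9 was chosen with this separation known. In the limma fit over these probe sets 0% passed an adjusted p of 0.05 between the breeds, and 2.84% had an unadjusted p under 0.05.

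With 1 array left out the difference in KLF9 ran from -0.85 without KNP replicate 4 to -0.58 without KNP replicate 3, and its sign could not change because the groups do not overlap. It was -0.77 without KNP replicate 2, the array with muscle signal. Leaving out the 3 arrays with 3'/5' differences above 4 gave -0.80, with KNP replicates 3 and 4 as the KNP arrays left in. With the 3'/5' difference in the model it was -0.72. Averaged with a dim probe set that carries the same symbol it was -0.33.

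That dim probe set did not show the pattern. Its signals were 289.7, 146, 5.84 and 17.0 on KNP replicates 1 to 4 and 39.4, 85.4, 27.1 and 108 on YS replicates 1 to 4. It exceeded the no-target level on 2 arrays of KNP and 1 of YS, and the breeds overlapped widely, with a difference of 0.06 ± 0.98 (SE). Its Entrez identifier is not the one under which RefSeq lists pig KLF9 and is not found in the RefSeq table of Sscrofa11.1, so its assignment to KLF9 is uncertain.

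**Figure D1:**
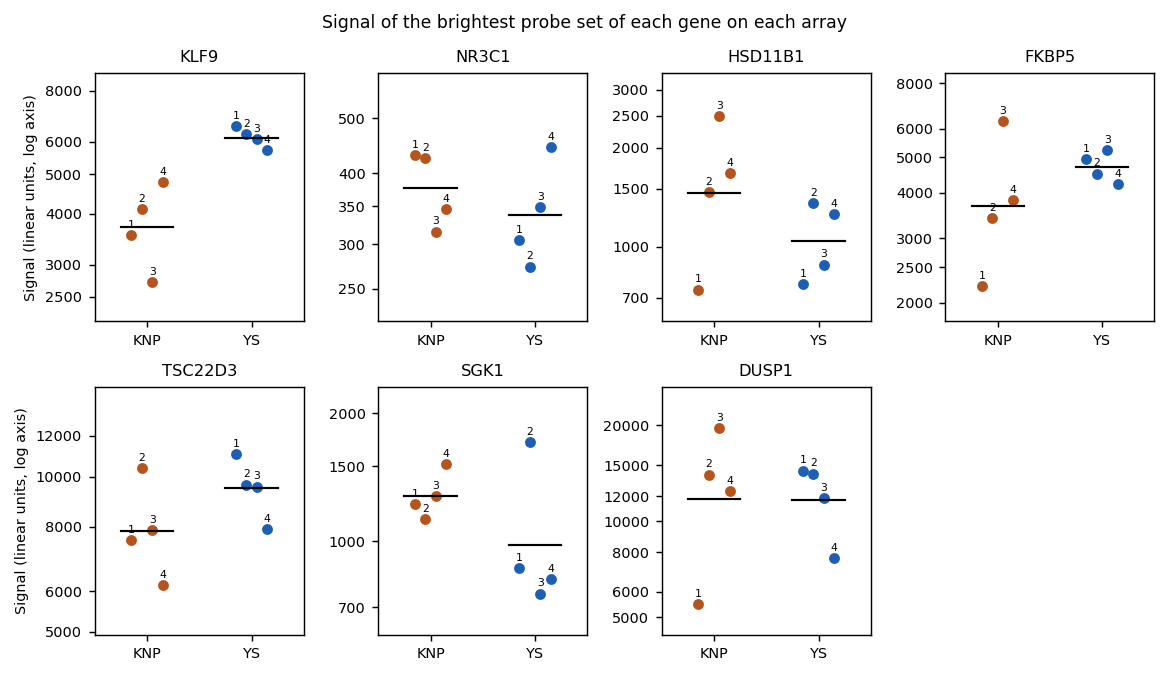
Signal of the brightest probe set of each of the 7 genes (vertical axes, linear units on a log scale) on the 4 KNP and 4 YS arrays; numbers are replicates and bars are means of log2(signal + 16), drawn back on the signal scale. KLF9 is the gene in which the KNP points (2722 to 4779) lie wholly below the YS points (5721 to 6545); in the other 6 the breeds overlap.

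The glucocorticoid receptor overlapped between the breeds. The brightest NR3C1 probe set had signals of 430.2, 425, 316 and 346 on KNP replicates 1 to 4 and of 305, 274, 349 and 445 on YS replicates 1 to 4. The breeds overlapped over most of their range, and the highest value of all was a YS array. The mean was 8.62 ± 0.21 for KNP against 8.47 ± 0.29 for YS (SD, n = 4), with a log2 difference of 0.15 ± 0.18 (SE). The other 3 NR3C1 probe sets were dim, each above the no-target level on 4 or 5 of the 8 arrays, and differed by -0.05 ± 0.67, -0.53 ± 0.86 and -0.68 ± 0.43 (SE). Averaged over its 4 probe sets NR3C1 differed by -0.28.

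The enzyme that makes cortisol in the cell, HSD11B1, had a higher mean in KNP with wide overlap. Its signals were 742, 1463, 2494 and 1671 on KNP replicates 1 to 4 and 771, 1357, 883 and 1258 on YS replicates 1 to 4. KNP held both the lowest and the highest array. The mean was 10.53 ± 0.72 for KNP against 10.04 ± 0.39 for YS (SD, n = 4), and the log2 difference was 0.48 ± 0.41 (SE). The value turned on KNP replicates 1 and 3: it was 0.81 without KNP replicate 1, which has the largest 3'/5' difference, and 0.23 without KNP replicate 3. With the 3'/5' difference in the model it was 0.73, and it was 1.05 without the 3 arrays in which that difference was largest. The KNP arrays left in were then replicates 3 and 4, and KNP replicate 3 was the highest array of all.

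FKBP5 is the co-chaperone that glucocorticoids induce and that in turn lowers the receptor's affinity for cortisol. Its bright probe set had signals of 2218, 3411, 6307 and 3829 on KNP replicates 1 to 4 and of 4958, 4517, 5238 and 4221 on YS replicates 1 to 4. In KNP 3 arrays lay below all YS arrays and KNP replicate 3 lay above them all. The mean was 11.85 ± 0.62 for KNP against 12.21 ± 0.14 for YS (SD, n = 4), a log2 difference of -0.36 ± 0.32 (SE). Leaving out KNP replicate 1 gave -0.12 and leaving out KNP replicate 3 gave -0.62. It was 0.0057 on the 5 arrays with 3'/5' differences of 2.12 to 3.17, where KNP replicates 3 and 4 were the KNP arrays. A second, dimmer FKBP5 probe set differed by -0.18 ± 0.95 (SE) and was above the no-target level on 3 arrays of each breed.

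TSC22D3, also known as GILZ, is a leucine zipper protein that glucocorticoids induce and that restrains inflammatory transcription factors. Its bright probe set had signals of 7538, 10408, 7885 and 6173 on KNP replicates 1 to 4 and of 11082, 9655, 9567 and 7926 on YS replicates 1 to 4. All but KNP replicate 2 among the KNP arrays lay below all YS arrays. The mean was 12.94 ± 0.31 for KNP against 13.21 ± 0.20 for YS (SD, n = 4), a log2 difference of -0.27 ± 0.18 (SE). The difference was -0.41 without KNP replicate 2, -0.16 without KNP replicate 4 and -0.53 when KNP replicates 1 and 2 and YS replicate 4 were all left out. The second TSC22D3 probe set was the member that did not pass the filter.

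SGK1 is a kinase induced by glucocorticoids and mineralocorticoids that acts on ion channels and transporters. Its signals were 1222, 1126, 1279 and 1520.05 on KNP replicates 1 to 4 and 866, 1711, 753 and 816 on YS replicates 1 to 4. All KNP arrays lay above 3 of the YS arrays, and YS replicate 2 lay above every KNP array. The mean was 10.34 ± 0.18 for KNP against 9.96 ± 0.54 for YS (SD, n = 4), with a log2 difference of 0.38 ± 0.28 (SE) that became 0.65 without YS replicate 2.

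DUSP1 encodes a phosphatase that switches off MAP kinases and is induced by glucocorticoids and by many other stimuli. Its signals were 5503, 14019, 19630.2 and 12450.5 on KNP replicates 1 to 4 and 14423, 14113, 11842 and 7662 on YS replicates 1 to 4. The lowest array in each breed was the one with that breed's largest 3'/5' difference. The means were 13.52 ± 0.78 for KNP against 13.51 ± 0.42 for YS (SD, n = 4), a log2 difference of 0.0076 ± 0.44 (SE), and the sign turned with the array left out, from -0.24 without KNP replicate 3 to 0.37 without KNP replicate 1.

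Among the brightest probe sets of the 7 genes, 3 were lower and 4 higher in KNP, with a median log2 difference of 0.0076, where 50.1% of all probe sets tested were lower and the median was -0.0010. Of the 6 genes besides KLF9, FKBP5 and TSC22D3 had the lower mean in KNP, as KLF9 did, and NR3C1, HSD11B1, SGK1 and DUSP1 had the higher mean. The median absolute difference over all probe sets was 0.24, with a median SE of 0.38.

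**Figure D2:**
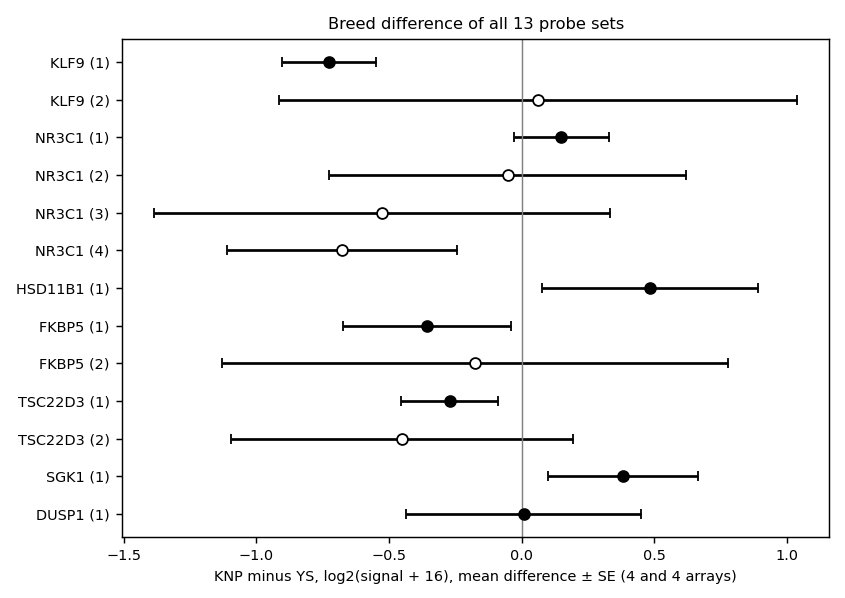
KNP minus YS difference in mean log2(signal + 16) for all 13 probe sets (horizontal axis, with SE over 4 and 4 arrays), numbered within each gene from the brightest; filled points were above the no-target level on all 8 arrays and open points were not. The bright KLF9 probe set lies at -0.73 ± 0.18, while the bars of 6 open points, among them the dim KLF9 probe set at 0.06 ± 0.98, are mostly wider.

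Whether the receptor, the enzyme and the targets followed KLF9 from array to array was asked within breeds. This leaves out the breed difference that was known when the members were chosen. The choice drew on the same 8 arrays, so the question may not be independent of it. Breed and the log2 signal of the bright KLF9 probe set were fitted together by limma to every other probe set, and the slope on KLF9 was tested. A correlation of the members with KLF9 pooled over the 8 arrays is not given, because the breeds do not overlap in KLF9. None of the 11 other member probe sets tested had a slope that passed: 0 had an adjusted p under 0.05 and 0 an unadjusted p under 0.05. Of all 17998 probe sets in that fit, 0% passed an adjusted p of 0.05 and 1.87% had an unadjusted p under 0.05. Without KNP replicate 3, 3 of the 11 had an unadjusted p under 0.05, where 13.3% of all probe sets did. With the dim KLF9 probe set as predictor 4 of 11 did, against 15.5% of all, and with median centring 1 of 11 did, against 12.9% of all. In these fits too, 0 probe sets passed an adjusted p of 0.05.

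No slope on KLF9 passed for the targets, the enzyme or the receptor. The slope, in log2 units of the gene per log2 unit of KLF9, was -0.73 for FKBP5, with a 95% interval of -2.50 to 1.04. It was -0.05 for TSC22D3 (-1.50 to 1.41), 0.28 for SGK1 (-1.46 to 2.02) and -0.25 for DUSP1 (-2.58 to 2.08). For HSD11B1 it was -0.69 (-2.83 to 1.44) and for NR3C1 0.05 (-1.40 to 1.49). Each of these 6 genes had an adjusted p of 0.9996 in limma, and slopes were positive for 2 and negative for 4 of the 6 genes, against 46.1% positive over all probe sets. The intervals are wide and each spans a slope of 0 and a slope of 1, at which a gene would change in step with KLF9. YS arrays deviated from their KLF9 mean by -0.10 to 0.09 and KNP arrays by -0.45 to 0.36, so the slopes rest mainly on KNP arrays.

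KNP replicate 3 carried much of what slope there was. It had the lowest KLF9 of all arrays, 0.45 below the KNP mean in log2 signal, and the highest HSD11B1, FKBP5 and DUSP1 of all arrays, 0.77, 0.78 and 0.74 above their KNP means. TSC22D3 and SGK1 on that array were within 0.0043 of their KNP means. Without KNP replicate 3 the slopes on KLF9 became 1.67 for FKBP5, 1.74 for HSD11B1 and 3.12 for DUSP1, all of opposite sign, with adjusted p of 0.497, 0.620 and 0.351 in limma.

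**Figure D3:**
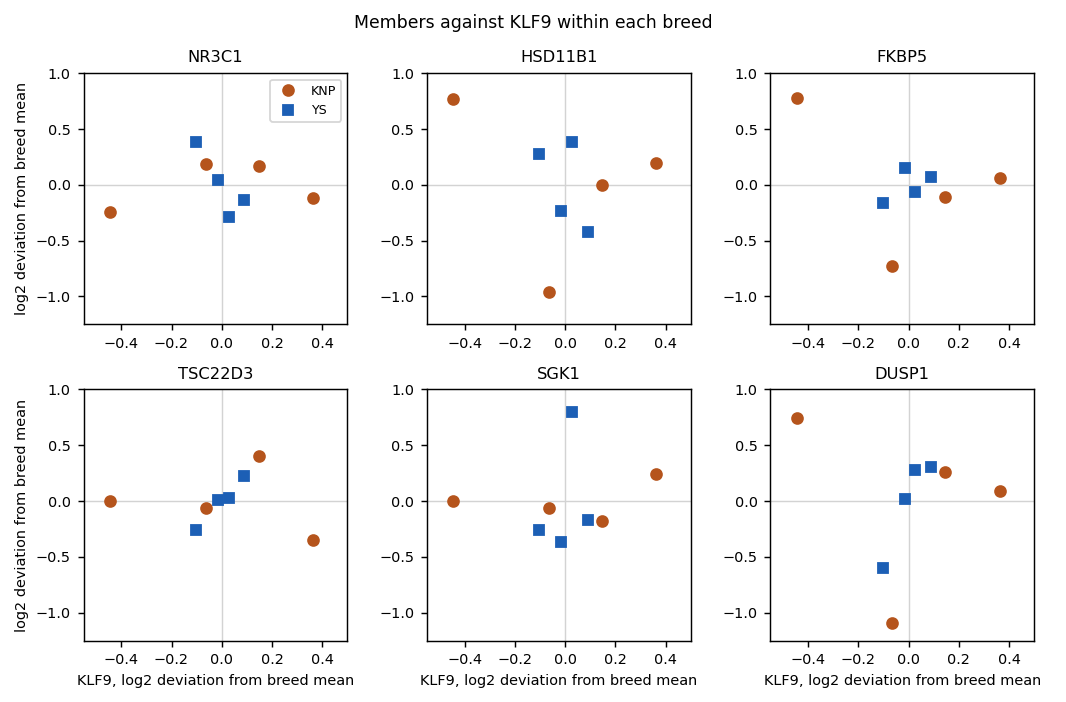
Deviation of each of 6 genes from its breed mean (vertical axes, log2 units) against the deviation of KLF9 from its breed mean (horizontal axes, log2 units) on the 8 arrays. The point at the far left is KNP replicate 3, with KLF9 at -0.45 and HSD11B1, FKBP5 and DUSP1 at 0.77, 0.78 and 0.74.

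The 3'/5' difference varied between the arrays, and a fit of breed and that difference gave each gene a slope in log2 units per log2 unit of it. The slope was -0.22 ± 0.08 for DUSP1 (SE; adjusted p = 0.218 in limma), -0.17 ± 0.06 for FKBP5 (adjusted p = 0.228) and -0.18 ± 0.08 for HSD11B1 (adjusted p = 0.305). The values for KLF9 were -0.0026 ± 0.06, for TSC22D3 0.02 ± 0.06, for SGK1 -0.04 ± 0.08 and for NR3C1 0.08 ± 0.06. No member passed an adjusted p of 0.05, where 0.0222% of all probe sets passed, and 5 of 12 member probe sets had an unadjusted p under 0.05, where 17.3% of all probe sets did. The slope of the dim KLF9 probe set was 0.58 ± 0.08 (adjusted p = 0.0658). With limma's array weights, which give noisy arrays less influence, 6 of 12 member probe sets passed, where 27.3% of all probe sets did. The bright probe sets of DUSP1 (adjusted p = 0.00647), FKBP5 (0.00918) and HSD11B1 (0.0146) were among the 6, and the rest were dimmer probe sets. Without KNP replicate 1, which lies far from the other arrays, the slopes were -0.12 for DUSP1, -0.14 for FKBP5 and -0.05 for HSD11B1, with adjusted p of 0.766, 0.668 and 0.919.

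**Figure D4:**
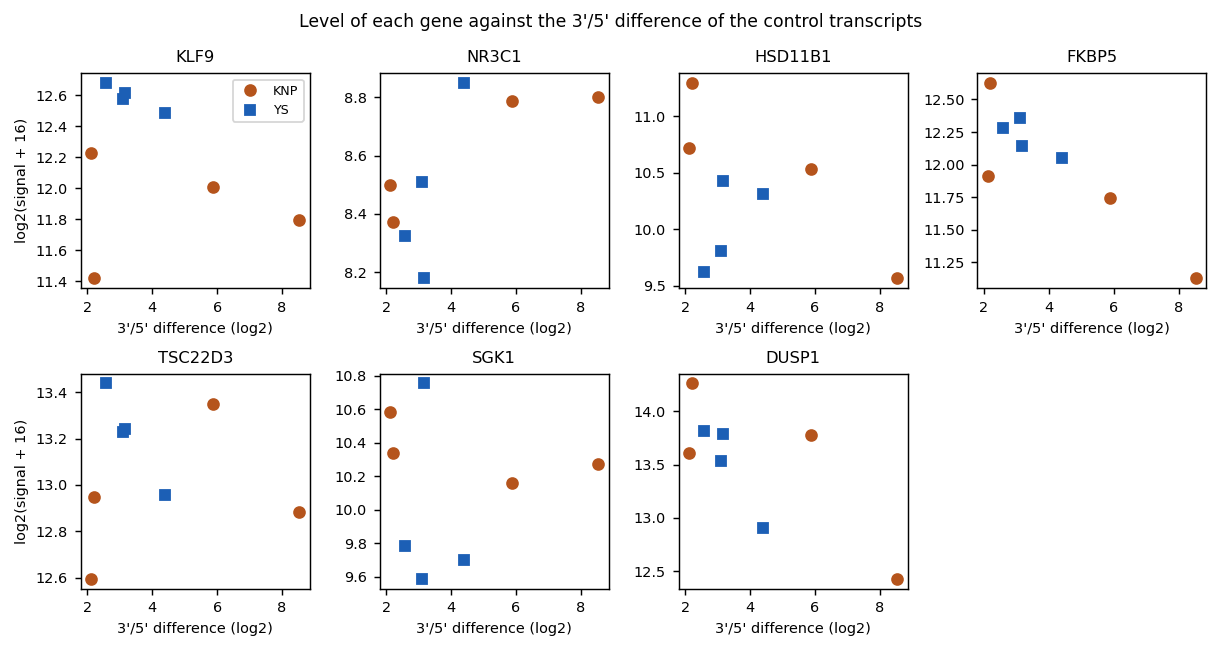
Log2(signal + 16) of each of the 7 genes (vertical axes) against the 3'/5' difference of the control transcripts (horizontal axes, log2) on the 8 arrays. FKBP5 and DUSP1 are lowest on KNP replicate 1, at a 3'/5' difference of 8.54, and no YS array has a 3'/5' difference above 4.40.

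The genes most like KLF9 over all 8 arrays were ranked as a description. KLF9 was chosen with its breed difference known, so the ranking does not test whether the members follow it. Pearson's r with KLF9 over the 8 arrays was computed for the 5756 other genes above the no-target level on at least 4 arrays, as a measure of likeness that includes the difference between the breeds. It was highest for PPP4R1L (0.94), DECR1 (0.93), ACTR6 (0.92), EPB41L1 (0.92) and ATP1B1 (0.91). DECR1 is a mitochondrial reductase needed to oxidise unsaturated fatty acids, ATP1B1 a subunit of the sodium pump and EPB41L1 a cytoskeletal adaptor of the membrane. With breed means taken out, r was 0.84, 0.67, 0.85, 0.82 and 0.78 in the same order. These 5 are the top of a ranking of 5756 genes on 8 arrays, and PPP4R1L and EPB41L1 were each above the no-target level on 5 arrays.

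Chaperones of the receptor mostly had higher means in KNP, coregulators that carry its signal were split, and none passed the test. Of 18 listed chaperones and coregulators on the array 16 passed the filter, 11 higher and 5 lower in KNP, with a median log2 difference of 0.12; 0 passed an adjusted p of 0.05 and 0 had an unadjusted p under 0.05. The largest differences were those of the heat shock proteins HSPA8, at 13.46 ± 0.54 for KNP against 12.72 ± 0.78 for YS (SD, n = 4), and HSPA4, at 10.42 ± 0.31 against 9.69 ± 0.52. The co-chaperone DNAJB1 was at 11.09 ± 0.51 against 10.49 ± 0.58. All 3 were lowest on YS replicate 4 and among the KNP arrays lowest on KNP replicate 4. The 5 lower genes were BAG1, at -0.34 ± 0.26 (SE), and the coregulators NCOA2, NCOA4, NCOR1 and SMARCA4, at -0.14 to -0.01. The coregulators NCOA1, HDAC2 and HDAC6 were higher, by 0.04 to 0.14.

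Other genes that glucocorticoids are known to induce were split. Of 24 on the array 22 passed the filter, 13 higher and 9 lower in KNP with a median of 0.09, and 0 passed an adjusted p of 0.05 in limma or had an unadjusted p under 0.05. RGS2, which dampens G protein signals, was at 11.20 ± 0.74 for KNP against 10.58 ± 0.42 for YS (SD, n = 4), and the lipoprotein lipase inhibitor ANGPTL4 was at 11.23 ± 1.26 against 10.73 ± 0.29. The haemoglobin scavenger receptor CD163, a macrophage gene, was at 9.85 ± 0.89 against 10.52 ± 0.40. NFKBIA, the inhibitor of NF-kB, was the 1 gene of the 22 with no overlap, where 0.856% of all probe sets lay wholly below YS, with a difference of -0.32 ± 0.08 (SE); it was picked out after its values were seen. Macrophage and myeloid markers, whose cells also use many of these targets, had a summed signal of 6913 to 15829 in KNP and 6935 to 13585 in YS, with 5 of 8 genes higher in KNP.

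Among the genes that govern the supply and removal of steroids, 9 were on the array and 7 passed the filter, 4 higher and 3 lower in KNP with a median of 0.06. None passed an adjusted p of 0.05, and 1 had an unadjusted p under 0.05, where 2.84% of all probe sets did. This was ABCB1, a pump that exports steroids and drugs from cells, at 7.45 ± 0.31 for KNP against 8.07 ± 0.13 for YS (SD, n = 4), with signals of 118 to 196 in KNP and 233 to 288 in YS. HSD3B1, a dehydrogenase of steroid synthesis, was at 8.82 ± 1.10 against 7.90 ± 0.63, and the sulphotransferase SULT2A1 at 7.98 ± 1.13 against 7.91 ± 0.94. HSD11B2, which inactivates cortisol and was picked out after its values were seen, was above the no-target level on 3 KNP and 2 YS arrays.

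Of 7 other Kruppel-like and SP factors in this list, 6 had the lower mean in KNP, as KLF9 did, with a median log2 difference of -0.39. Over all probe sets tested 50.1% were lower. None of the 7 passed an adjusted p of 0.05 in limma or had an unadjusted p under 0.05. KLF15, counted above among the genes that glucocorticoids induce, is a further Kruppel-like factor. Its mean was higher in KNP, by 0.13 ± 0.33 (SE). KLF10, induced by TGF-beta, was at 10.85 ± 0.40 for KNP against 11.24 ± 0.42 for YS (SD, n = 4). KLF13 was at 10.26 ± 0.36 against 10.68 ± 0.44, and KLF4 at 10.73 ± 0.80 against 10.94 ± 0.14. The breeds overlapped in all 7, and 4 of the 7 were not above the no-target level on every array.

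The immediate early genes, which like DUSP1 respond within minutes to many stimuli, numbered 17, with 9 higher and 8 lower in KNP and a median of 0.03. None passed an adjusted p of 0.05, and 2 had an unadjusted p under 0.05, where 2.84% of all probe sets did. NR4A3, an orphan nuclear receptor, was at 9.85 ± 1.03 for KNP against 7.77 ± 0.50 for YS (SD, n = 4), the transcription factor ATF3 at 10.23 ± 0.60 against 9.41 ± 0.40, and the matrix protein gene CYR61 at 11.05 ± 0.82 against 10.18 ± 0.49. In NR4A3 the breeds did not overlap, where 1.1% of all probe sets lay wholly above YS in KNP. The gap was narrow, with a signal of 318 on KNP replicate 1 and 316 on YS replicate 4.

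**Figure D5:**
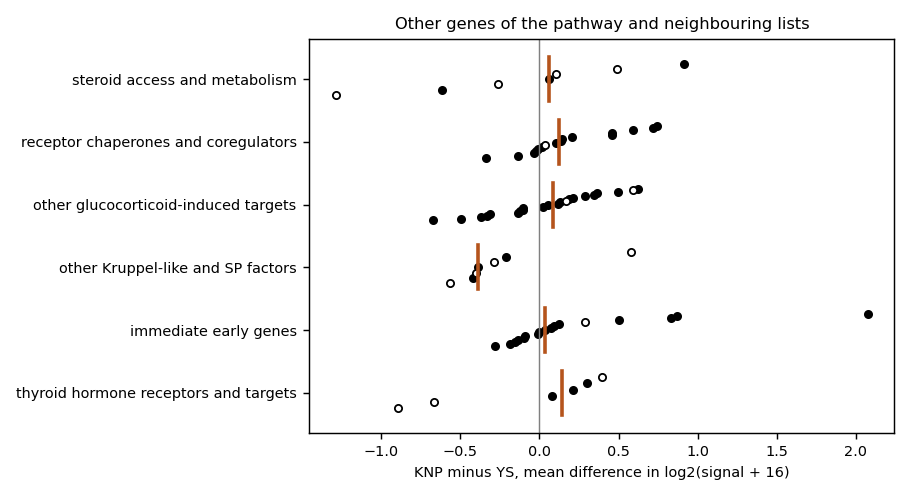
KNP minus YS difference in mean log2(signal + 16) (horizontal axis) for each gene of 6 lists that passed the filter; filled points were above the no-target level on all 8 arrays, open points were not, and coloured bars are list medians. The list medians lie between -0.39 for the other Kruppel-like and SP factors and 0.14 for thyroid hormone genes.

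Means of marker genes of other cell types also differed between the breeds, in both directions, with 0 genes past an adjusted p of 0.05 in limma. Of 6 smooth muscle and pericyte markers 5 had the higher mean in KNP, with a median log2 difference of 0.39. Of 8 endothelial markers 3 did, with a median of -0.06. All 7 fibroblast and progenitor markers measured had the lower mean in KNP, with a median log2 difference of -0.55 and a summed signal of 24758 to 45432 in KNP and 27420 to 61160 in YS. Of 8 T and NK cell markers 7 were lower, with a median of -0.47. These were dim, and only 1 of the 10 on the array was above the no-target level on all 8 arrays. The difference in skeletal muscle markers came from KNP replicate 2: all 9 that passed the filter had the higher mean in KNP, with a median of 1.44. Without that array 2 of the 9 did and the median was -0.59, but 4 of the 9 were then below the filter on dim values. Without it 6 of the 7 fibroblast and progenitor markers and 6 of the 8 T and NK cell markers had the lower mean in KNP. That recount was added after the data were seen. Fewer cells of a type and less RNA per cell cannot be told apart in such bulk samples, and the part of these markers in the KLF9 difference was not tested.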

How the data were processed

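Total RNA of 4 KNP and 4 YS backfat samples was hybridised to a 1-colour Affymetrix array, per the labels. The deposited intensity, 1 per probe set and array on a linear scale, had been scaled by the authors to an equal mean trimmed by 2% at each end, as read from the values; how probes were summarised into probe sets is not given in those sources. Array data carry no counts, so the number of arrays limits the precision. Control probe sets (124) and the 25% of the rest with the lowest mean were left out, leaving 17999.

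The platform's annotation gave 1 symbol to 10069 probe sets, several to 198 and none to 13732. For each gene the brightest probe set on average stood for it. The files give no positions and no sequences of the probe sets, so none are printed.

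Fits used limma 3.58.1 in R 4.3.3 (lmFit, eBayes), two-sided, with Benjamini-Hochberg adjustment over all probe sets tested. The breed fit had no covariate; the KLF9 fit had breed as a term, as did the 3'/5' fit, which was added after seeing the data. Robust fits used statmod 1.5.0. On simulated data of 17999 probe sets the KLF9 fit recovered 0 of 100 slopes of size 2 and 21 of 100 of size 4, with 1 false call. The simulated noise was independent between probe sets and arrays. Real arrays share array-wide differences such as the 3'/5' difference, so recovery and false calls in the real data may differ. Named genes were the 7 members and the 5 with the highest r with KLF9. From each list came the 3 genes with the largest breed difference among those above the no-target level on all arrays. HSD11B2, NFKBIA, KLF15, HR, RXRA, THRB, DIO1, DIO2 and DIO3 were added after their values were seen, as were BAG1 and the coregulators. Members and lists were chosen with earlier results of these data known.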

Additional observations from a re-analysis of the deposited data

Results flagged for a closer look

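Among 26 sets of 4 arrays (13 probe sets in 2 breeds), 2 held an array that stood far from the others; chance gives about 1 in 20. SGK1 on YS replicate 2 had a signal of 1711, where the other YS arrays had 753 to 866. A dim NR3C1 probe set had 479 on YS replicate 4, where the other YS arrays had 61.0 to 79.4. The TSC22D3 probe set left out as dim had a signal of 142 on YS replicate 1, above that array's no-target level of 78.5, and 7.73 to 34.8 on the other 7 arrays.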

How the results depend on the processing

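No probe set passed between the breeds, and no probe set passed for the slope on KLF9, under any of the 19 and 20 alternatives run; the smallest adjusted p was 0.0596 and 0.0577. The replicate numbers did not pair the samples (same-numbered arrays had correlations of -0.17, 0.02, 0.13 and -0.19, and no KNP array matched its own number best), and the replicate block gave 0 calls, with 509 probe sets at an unadjusted p under 0.05. Member differences between the breeds moved by less than 1 SD except with a gene's probe sets averaged, where KLF9 was -0.33 and NR3C1 -0.28. The slopes on KLF9, none of which passed, changed sign in these cases. With median centring, which moved the median slope of all probe sets from -0.06 to 0.39, they were 1.30 for DUSP1, 0.67 for FKBP5, 0.49 for HSD11B1 and 0.70 for TSC22D3. With array weights they were 0.98, 0.13 and 0.25 for the first 3 and -0.37 for NR3C1, and with the replicate block 0.51 for DUSP1, -0.24 for NR3C1, -0.13 for SGK1 and 0.12 for TSC22D3. With no breed term they were 0.17 for FKBP5, -0.14 for NR3C1, -0.31 for SGK1 and 0.26 for TSC22D3. Such slopes take in the known difference between the breeds, so they do not bear on whether members follow KLF9 within breeds. With the dim KLF9 probe set as predictor the within-breed slopes were -0.0083 for SGK1 and 0.039 for TSC22D3. With 1 array left out they ran from -0.68 to 3.12 for DUSP1, -1.51 to 1.67 for FKBP5, -1.77 to 1.74 for HSD11B1, -1.13 to 0.37 for NR3C1, -0.070 to 0.95 for SGK1 and -0.28 to 0.76 for TSC22D3. The causes were not tested. For the 3'/5' difference, 4 probe sets passed in all, 0 with no filter, 112 with a 50% filter, 50 with quantile normalization, 83 with median centring, 8 and 17 with pseudocounts of 1 and 64, 212 with a trend and robust fit, 4921 with array weights, 0 with the replicate block, and 0 to 12 with 1 array left out; 6 member probe sets passed with array weights and 0 otherwise. The KLF9 slope on it was 0.015 with quantile normalization, 0.030 with array weights and -0.069 to 0.053 with 1 array left out; that of TSC22D3 was -0.054 with median centring, -0.011 with the block and -0.023 to 0.090 with 1 array left out. The alternatives for a pooled correlation of the members with KLF9 were not run, since none is given for them.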

Other observations

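KLF9 also answers to thyroid hormone, and 9 genes of thyroid hormone action were on the array. Of the 6 that passed the filter 4 had the higher and 2 the lower mean in KNP, with a median log2 difference of 0.14. The 4 higher were THRA, RXRA, RXRB and RXRG, and the 2 lower were THRB and HR. HR, listed as a target, differed by -0.89 ± 0.45 (SE) and was above the no-target level on 2 KNP and 4 YS arrays. In limma 0 of the 6 passed an adjusted p of 0.05 and 1 had an unadjusted p under 0.05, where 2.84% of all probe sets did. The thyroid hormone receptor gene THRA was at 9.82 ± 0.33 for KNP against 9.52 ± 0.26 for YS (SD, n = 4). The receptor gene THRB differed by -0.67 ± 0.22 (SE), with no overlap between the breeds, where 0.856% of all probe sets lay wholly below YS, and 3 KNP arrays above the no-target level; it was picked out after its values were seen. The retinoid X receptors RXRB, at 8.21 ± 0.42 against 8.00 ± 0.40, and RXRG, at 8.30 ± 1.36 against 8.23 ± 0.20, can form pairs with thyroid hormone receptors. The deiodinase genes were also picked out afterwards: the activating DIO1 and DIO2 did not pass the filter, and the inactivating DIO3 was above the no-target level on 0 arrays.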
